A study of Homo sapiens with 46 samples.

Results

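MDA-MB-231 cells, an adherent human breast cancer line, were transfected with ASO-1570, a splice-switching antisense oligonucleotide, and compared with the same line transfected with a control oligonucleotide. The members were chosen by name: the 3 libraries of MDA-MB-231 given ASO-1570 and the 3 given control ASO, which are 6 of the 46 samples of the series. Both oligonucleotides were used at 200 nM with the lipid reagent lipofectamine 3000, and RNA was taken 48 h later, so all 6 libraries share the transfection. MDA-MB-231 is a single cell line, and the labels do not say that the replicates were separate cultures. P-values therefore measure only the spread between libraries. For gene levels, that spread was estimated together with the 6 libraries of a second line, U87MG, in the same count table. The pair has no untransfected library, so whether a difference arose with ASO-1570 or with the control oligonucleotide cannot be told apart. Stranded mRNA libraries were sequenced as 151-base pairs, and each gave a gene count and, for each splicing event, a percent spliced in (PSI), written here as a fraction from 0 to 1.

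TRA2B and its paralog TRA2A are RNA-binding splicing factors with arginine and serine rich domains that bind purine-rich exon sequences containing GAA and promote inclusion of the bound exon. TRA2B also binds GAA repeats in a poison exon of its own transcript, an exon that carries an early stop codon. Including that exon gives an RNA that makes no full-length protein, so its inclusion works as a negative feedback on TRA2B.

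Library totals lay between 259885034 and 335175414 counts. The 3 ASO-1570 libraries were less alike than the controls. The chi-square per gene between replicates was 42.3 to 76.7 among the controls and 93.6 between ASO-1570 replicates 1 and 3, but 402.4 and 504.7 for the pairs with replicate 2. Replicate 3 had the smallest change of the 3 at 72.6% of the cassette exons that fell and at 74.2% of the genes that fell (log2 CPM averaging 3 or more). Mitochondrial genes took 1.78% to 1.85% of counts in the controls and 2.13% to 2.34% with ASO-1570, and their part in the results was not tested. Of 12 markers of this mesenchymal type of breast line, VIM and CAV1 were the most abundant, and SPARC lay below 1 CPM (counts scaled to the library total). The summed level of the 12 was 8800 to 9100 CPM in controls and 9200 to 9610 CPM with ASO-1570, where 2 of 12 tested rose and 4 fell. Of 11 luminal markers, ESR1, PGR, FOXA1 and TFF3 were below 1 CPM in all 6 libraries, and XBP1 and ERBB2 were the most abundant. Summed luminal markers were 242 to 276 CPM in controls and 239 to 257 CPM with ASO-1570, where 1 of 9 tested rose and 2 fell. Summed fibroblast markers were 64.2 to 70.1 CPM in controls and 83.8 to 104 CPM with ASO-1570, where 3 of 12 tested rose and 1 fell, and COL3A1, DCN, FAP, POSTN, THY1 and MFAP5 were below 1 CPM throughout. Summed glial and neural markers were 161 to 167 CPM in controls and 81.5 to 118 CPM with ASO-1570, where none of 11 tested rose and 4 fell. MBP was the most abundant of them, followed by NES, and 10 of the 13, including SOX2, SOX10 and OLIG2, were below 1 CPM.

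The target was checked first. Only the coding bases of the TRA2B poison exon are printed here, and most GAA triplets of the exon lie outside them. The printed bases lie at chr3:185931775-185931852 (GRCh38, minus strand), run 5′ to 3′ with each GAA in capitals, and are followed at once by the annotated stop codon.
TRA2B poison exon, coding bases: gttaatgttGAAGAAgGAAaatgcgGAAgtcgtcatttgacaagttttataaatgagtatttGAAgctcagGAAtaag
These 78 bases hold 6 GAA triplets, and the whole exon at chr3:185931577-185931852, 276 bases long, holds 28 GAA and 3 GAAGAA. Its 10.1 GAA per 100 bases compare with a median of 2.08 over the 18464 cassette exons tested with adjacent flanks, which are defined below. The PSI of the exon was 0.160, 0.159 and 0.161 in the controls and 0.402, 0.556 and 0.301 with ASO-1570. All 3 treated libraries lay above all 3 controls, and the treated libraries were spread over a wide range. The difference of 0.26 (SE 0.0633) had an adjusted p of 0.131 by limma over all events, and the exact two-sided permutation p was 0.1, the smallest that 3 against 3 libraries allow. With the 6 U87MG libraries of the same table in the fit, the limma adjusted p was 0.0221.

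TRA2B (ENSG00000136527.18, chr3:185915906-185938136) was at 196, 206 and 192 CPM in controls and 104, 106 and 116 CPM with ASO-1570. The 2 groups were far apart, with a log2 change of -0.87 (SE 0.0611, edgeR adjusted p = 6.89e-06). TRA2A (ENSG00000164548.11, chr7:23504780-23532041) was at 71.9, 73.2 and 69.7 CPM in controls and 114, 112 and 111 CPM with ASO-1570, and it rose by 0.65 on the log2 scale (SE 0.0585, edgeR adjusted p = 3.33e-05). TRA2A therefore moved opposite to TRA2B in every library. An exon of TRA2A of 312 bases at chr7:23522121-23522432, annotated only in noncoding transcripts, had PSI values of 0.096, 0.107 and 0.108 in controls and 0.055, 0.081 and 0.062 with ASO-1570. Its groups did not overlap, but the difference did not pass the limma test (adjusted p = 0.354). A mutually exclusive event of TRA2A that uses the start of the same exon was called (PSI 0.170, 0.194 and 0.176 in controls, 0.368, 0.299 and 0.332 with ASO-1570, limma adjusted p = 0.0487), although the call was lost whenever any 1 library was left out (adjusted p up to 0.192). Which of its 2 exons this PSI refers to was not settled.

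**Figure D1:**
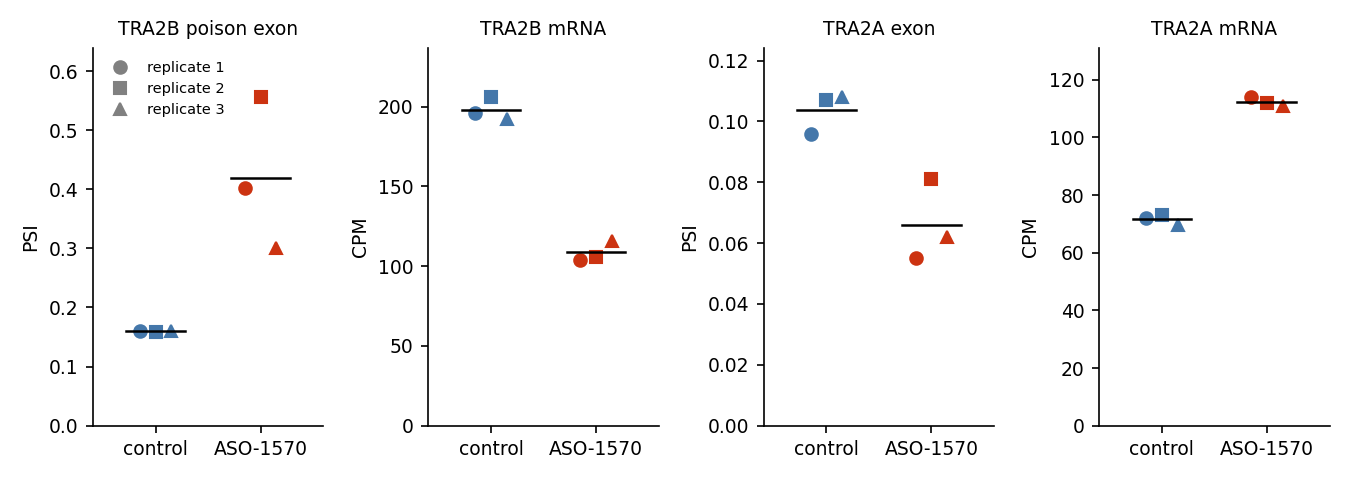
TRA2B and TRA2A in the 6 libraries. Points are single libraries, with the marker shape giving the replicate, and lines the mean of 3. The panels show gene level in CPM and exon PSI as a fraction, for control and ASO-1570. TRA2B level was lower and its poison exon PSI higher in each ASO-1570 library than in any control, while TRA2A level was higher.

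More splicing events were called with a lower than with a higher PSI. Of 69852 events tested with limma, 717 (1.03%) fell and 275 (0.394%) rose at an adjusted p below 0.05 and a PSI difference of at least 0.10, in 671 genes. Cassette exons made up most of them, with 631 (1.48%) lower and 172 (0.403%) higher of 42717. Retained introns went the other way, with 10 (0.429%) higher and 5 (0.215%) lower of 2330. Alternative 3′ splice sites gave 10 (0.251%) higher and 21 (0.526%) lower of 3991, and alternative 5′ splice sites 14 (0.477%) and 22 (0.75%) of 2933. Mutually exclusive exons gave 69 (0.386%) with a higher and 38 (0.213%) with a lower PSI of 17881, but which exon of the pair this PSI refers to was not settled, so these directions cannot be read as inclusion. Without them, 679 events fell and 206 rose of 51971. These counts depended on single libraries. Without ASO-1570 replicate 3 they were 418 higher and 2034 lower, without ASO-1570 replicate 2 they were 33 and 122, without ASO-1570 replicate 1 they were 49 and 134, and without 1 control they were 29 to 39 and 105 to 131.

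Many cassette events use flanking exons that skip a neighbouring exon, and such an event can show a large PSI change for an exon that is hardly used. NAP1L4, a histone chaperone gene, is an example: the PSI of its event was 1.00 in controls and 0.030, 0.008 and 0.013 with ASO-1570, while the same exon had a mean PSI of 0.00283 in a narrower event. Of the 15 largest falls, 1 had adjacent flanks and 8 concerned an exon with a mean PSI of at most 0.1 in another event, and of the 15 largest rises these numbers were 10 and 3. The account of cassette exons is therefore limited to exons with adjacent flanks, those whose event has the narrowest flanks and no other exon with a control PSI of at least 0.5 inside its introns. This limit was set after seeing the data. Of the 18464 such exons tested, 259 (1.4%) in 235 genes fell, with a median change of -0.30, and 99 (0.536%) in 94 genes rose, with a median change of 0.27. The groups did not overlap at any of these 259 and 99 exons, so lack of overlap sets none of them apart. Without ASO-1570 replicate 2 these counts were 16 lower and 15 higher, and without ASO-1570 replicate 3 they were 715 and 142.

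Of the exons that fell, 58.3% had a control PSI above 0.9, beside 47% of all adjacent-flank exons tested. Among 8678 exons with a control PSI above 0.9, 151 fell and none could rise by 0.10 or more. Between 0.5 and 0.9, 64 fell and 27 rose of 5105, and below 0.5, 44 fell and 72 rose of 4681. In 86 of the 259 exons that fell, every control had a PSI of at least 0.98, and the median treated PSI of these 86 was 0.681. The reverse also occurred: in 23 of the 99 exons that rose, every ASO-1570 library had a PSI of at least 0.98, and the median control PSI was 0.667. Over all 64292 adjacent-flank exons with values, 23.6% to 24.0% had a PSI below 0.9 in a control library and 24.5% to 25.7% in an ASO-1570 library, the lowest of the 3 being replicate 3.

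**Figure D2:**
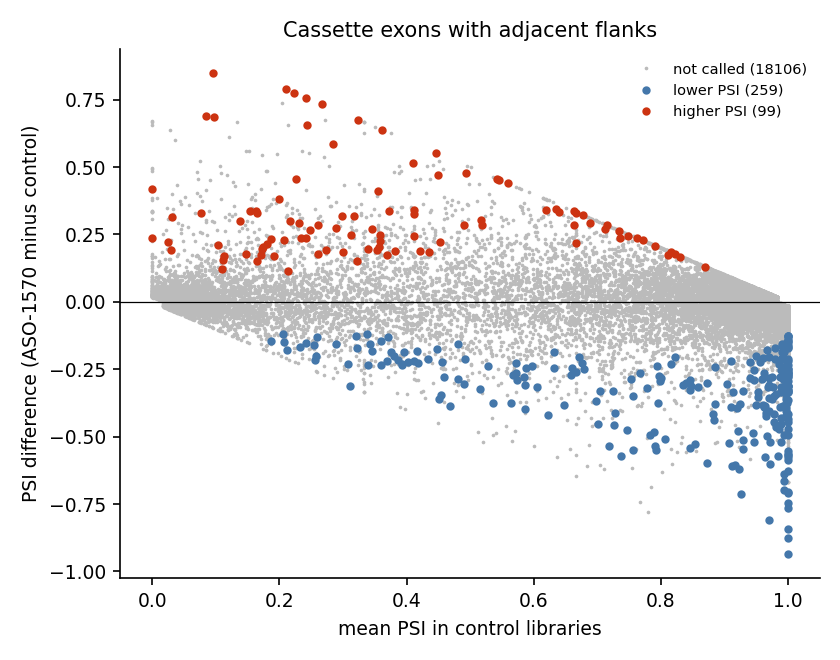
PSI difference, ASO-1570 minus control, against the mean PSI of the 3 control libraries (both as fractions) for the adjacent-flank cassette exons tested, 1 point per exon, with exons called lower and higher in colour. Of the 259 lower exons, 58.3% lie at the right edge, where control PSI is above 0.9, beside 47% of all exons tested. The 99 higher exons lie mostly to the left.

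The exons that fell lie in genes of varied function, and those described here were chosen from the leading ones in abundant genes. Falls larger than that of HSPA14 were also found in noncoding or UTR exons of NDUFAF6, PTRHD1, CSNK2A1 and SREBF2 (changes of -0.93, -0.76, -0.75 and -0.71 in PSI, limma adjusted p = 0.00549, 0.0179, 0.0128 and 0.0174). NDUFAF6 kept its call without any 1 library, whereas the others lost it in several such fits, with a highest adjusted p of 0.0784, 0.0624 and 0.0698. The exons of CSNK2A1 and SREBF2 had a mean PSI of 0.00183 and 0.00233 over the 6 libraries in another event. Adjacent flanks thus did not remove every exon that another event shows as hardly used. HSPA14, an Hsp70 family protein that works at the ribosome, had the largest fall among the wholly coding exons named. That exon had PSI values of 0.991, 0.994 and 0.995 in controls and 0.250, 0.252 and 0.388 with ASO-1570, a change of -0.70 (SE 0.0468, limma adjusted p = 0.00657). In TRNT1, the enzyme that adds CCA to tRNA ends, a 140-base UTR exon at chr3:3149094-3149233 went from 0.910, 1.00 and 1.00 to 0.119, 0.184 and 0.180 (limma adjusted p = 0.00249). In CHMP4A, a subunit of the membrane-cutting ESCRT-III complex, a 102-base exon that is part coding at chr14:24211411-24211512 went from 1.00 in all 3 controls to 0.240, 0.320 and 0.315 (limma adjusted p = 0.00264). The groups were far apart in all 3 genes, and these 3 exons were called in all 6 fits that each left out 1 library.

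VPS35, the core subunit of the retromer that returns receptors from endosomes, was included at 1.00 in every control and at 0.397, 0.348 and 0.523 with ASO-1570 (change -0.58, SE 0.0527, limma adjusted p = 0.016). ATR, the kinase that signals stalled replication forks, had an exon at 0.970, 0.985 and 1.00 in controls and 0.292, 0.390 and 0.553 with ASO-1570 (change -0.57, SE 0.0700, limma adjusted p = 0.0299). The exon is 92 bases long, which is not a multiple of 3, so skipping it shifts the reading frame. OSBPL8, a lipid transfer protein at contacts of the endoplasmic reticulum with the plasma membrane, went from 0.999, 1.00 and 1.00 to 0.397, 0.370 and 0.531 (limma adjusted p = 0.0153). TOX4, a chromatin protein with an HMG box, went from 1.00 in each control to 0.401, 0.299 and 0.545 (limma adjusted p = 0.0263). In each of these 4 genes ASO-1570 replicate 3 kept the most inclusion. ORC6, a subunit of the origin recognition complex, had a 63-base exon at 0.982, 1.00 and 1.00 in controls and 0.269, 0.264 and 0.534 with ASO-1570 (limma adjusted p = 0.0306). AHI1 of the ciliary transition zone, the centrosome gene CEP63 and SPOPL, an adaptor of a CUL3 ubiquitin ligase, fell by 0.67, 0.61 and 0.55 in PSI (limma adjusted p = 0.0128, 0.00829 and 0.0358). The exons of VPS35, ATR, OSBPL8, TOX4, ORC6, AHI1 and SPOPL kept their call only in the fit without ASO-1570 replicate 3, and leaving out any other library raised the highest limma adjusted p to between 0.062 (AHI1) and 0.134 (SPOPL). CEP63 lost its call only without ASO-1570 replicate 1 (limma adjusted p = 0.0518).

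Exons that rose included some that were skipped in most control transcripts. CNN3, an actin-binding calponin, had an exon at 0.244, 0.224 and 0.257 in controls and at 0.998, 0.997 and 0.998 with ASO-1570 (change 0.76, SE 0.0275, limma adjusted p = 0.00101), while the level of the gene did not pass the test (log2 change -0.10, edgeR adjusted p = 0.351). STXBP2, a partner of syntaxins in vesicle fusion, went from 0.247, 0.213 and 0.269 to 0.908, 0.885 and 0.907 (change 0.66, SE 0.0280, limma adjusted p = 0.00187). In ARHGAP29, a GTPase-activating protein, a 138-base coding exon at chr1:94201720-94201857 went from 0.360, 0.333 and 0.391 to 1.00 in all 3 ASO-1570 libraries (limma adjusted p = 0.00279), and the gene fell by 1.23 on the log2 scale (edgeR adjusted p = 0.00121). No treated library of these 3 genes came near a control. A 136-base UTR exon of FCF1, a ribosomal RNA processing factor, went from 0.077, 0.050 and 0.162 to 0.832, 1.00 and 1.00 (limma adjusted p = 0.00709), and FCF1 fell by 1.22 on the log2 scale (edgeR adjusted p = 5.8e-06). A 75-base UTR exon of YY1AP1 went from 0.068, 0.083 and 0.102 to 0.746, 0.796 and 0.775 (limma adjusted p = 0.000698). These 5 exons were called in all 6 fits that each left out 1 library.

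YME1L1, a protease of the inner mitochondrial membrane, had an exon at 0.409, 0.437 and 0.501 in controls and 0.914, 0.927 and 0.916 with ASO-1570 (change 0.47, SE 0.0372, limma adjusted p = 0.0109), and the gene fell by 0.44 on the log2 scale (edgeR adjusted p = 0.000853). The YME1L1 exon was part of 4 events, and its mean PSI over the 6 libraries was 0.171 in another of them. RAPGEF2, an exchange factor for Rap GTPases, went from 0.583, 0.460 and 0.583 to 0.99, 1.00 and 1.00 (limma adjusted p = 0.0198). VPS29, another retromer subunit, had a 236-base exon that went from 0.577, 0.612 and 0.671 to 0.963, 0.959 and 0.965 (limma adjusted p = 0.0245). An exon of the retromer thus fell in VPS35 and another rose in VPS29. RAPGEF2 and VPS29 kept their call only in the fit without ASO-1570 replicate 3, with a highest limma adjusted p of 0.0837 and 0.105, and YME1L1 kept it in 2 of 6 fits, with a highest adjusted p of 0.0709.

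**Figure D3:**
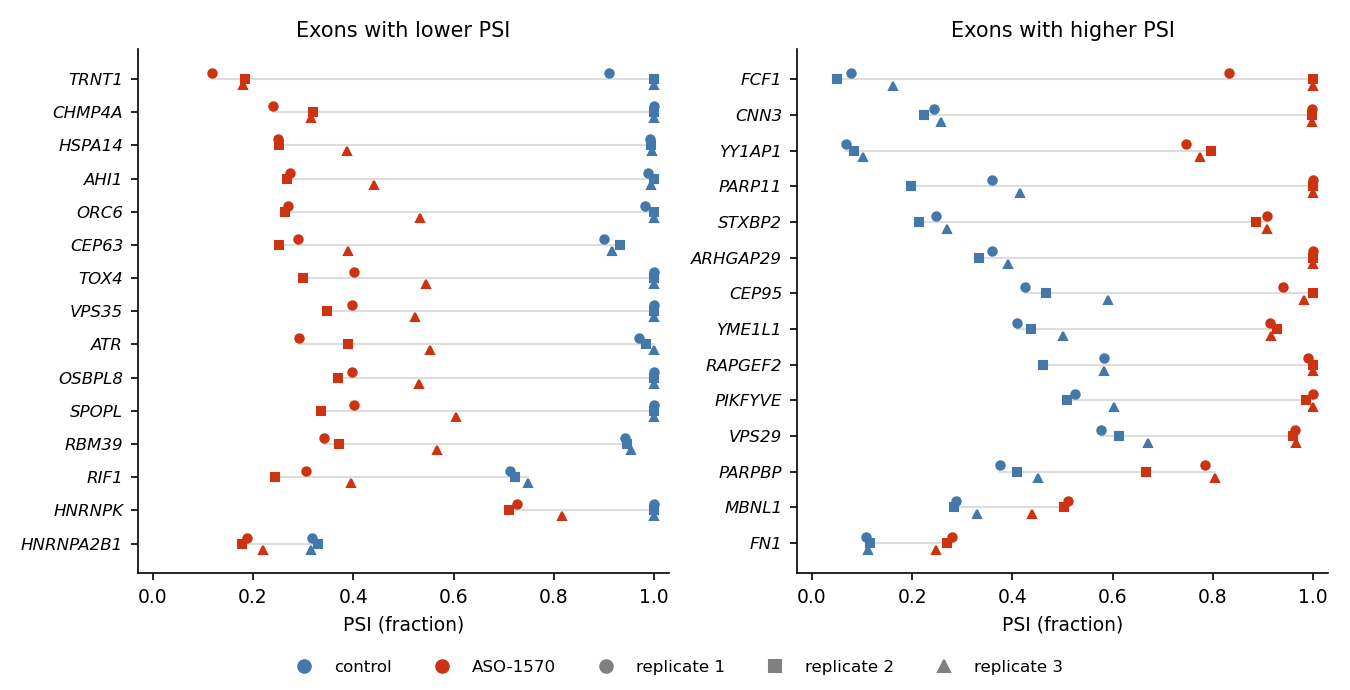
PSI (fraction) of named adjacent-flank cassette exons in each of the 6 libraries, falls and rises in separate panels, 1 point per library for control and ASO-1570. The 2 groups do not overlap at any exon shown, which was a condition for naming the leading exons. The same holds for all 259 lower and all 99 higher called exons. Of the wholly coding exons shown, HSPA14 fell and CNN3 rose by the most.

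A selection of the coding exons described above, not ranked by size or p, is printed in full so that GAA content can be read beside the poison exon. All are on GRCh38, 5′ to 3′ on the strand of the gene, with each GAA in capitals. The first 5 fell and the last 4 rose.
HSPA14 chr10:14854125-14854280: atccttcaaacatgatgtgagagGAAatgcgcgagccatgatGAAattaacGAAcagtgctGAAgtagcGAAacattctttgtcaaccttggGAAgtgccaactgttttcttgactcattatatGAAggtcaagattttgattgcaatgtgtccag
VPS35 chr16:46661718-46661861: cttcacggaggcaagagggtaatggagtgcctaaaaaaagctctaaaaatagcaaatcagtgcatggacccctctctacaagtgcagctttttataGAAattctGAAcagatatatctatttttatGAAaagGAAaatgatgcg
ATR chr3:142568063-142568154: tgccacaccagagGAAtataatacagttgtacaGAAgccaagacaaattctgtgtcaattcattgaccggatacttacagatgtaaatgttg
OSBPL8 chr12:76373344-76373433: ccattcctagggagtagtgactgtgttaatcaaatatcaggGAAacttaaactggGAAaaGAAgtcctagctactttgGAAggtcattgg
TOX4 chr14:21477496-21477592: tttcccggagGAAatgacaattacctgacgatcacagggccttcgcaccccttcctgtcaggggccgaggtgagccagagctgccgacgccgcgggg
CNN3 chr1:94902121-94902258: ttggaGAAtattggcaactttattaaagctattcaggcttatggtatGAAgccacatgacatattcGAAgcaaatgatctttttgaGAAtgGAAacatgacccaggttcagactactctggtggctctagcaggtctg
STXBP2 chr19:7643165-7643245: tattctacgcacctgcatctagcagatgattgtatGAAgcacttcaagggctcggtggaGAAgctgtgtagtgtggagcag
YME1L1 chr10:27142387-27142485: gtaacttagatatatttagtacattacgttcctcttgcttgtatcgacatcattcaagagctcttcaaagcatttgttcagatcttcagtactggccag
RAPGEF2 chr4:159193200-159193256: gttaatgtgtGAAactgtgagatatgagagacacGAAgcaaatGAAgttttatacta
HSPA14 holds 7 GAA in 156 bases, VPS35 holds 4 in 144, OSBPL8 holds 4 in 90 and ATR holds 2 in 92. TOX4 holds 1 in 97 bases, with a GC content of 63.9%. Of the exons that rose, CNN3 holds 5 in 138 bases, RAPGEF2 3 in 57, STXBP2 2 in 81 and YME1L1 none in 99. None of the 9 holds GAAGAA. Both directions thus include exons with many GAA and exons with few, and a match is a description of the letters, not a binding site.

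Over all adjacent-flank exons, those that fell had a median of 2.86 GAA per 100 bases of the sense strand, those that rose 2.37 and those not called 2.08. GAAGAA, whose letters overlap with GAA, occurred in 14.8% of exons that fell, 10.3% of exons that rose and 12.3% of all tested exons. Exons of both called groups had a lower GC content, with medians of 44.1% and 44.9% beside 49.2% for exons not called. Among exons with a control PSI above 0.9, the median was 2.99 GAA per 100 bases for those that fell and 2.29 for those not called, and GC content was 43.6% and 48.2%. Median lengths were 114, 99 and 118 bases for lower, higher and not called. A length divisible by 3 was found in 63% of coding exons that fell, 73.7% of those that rose and 49.6% of those not called. Both called groups had a higher median GAA content and a lower median GC content than exons not called, and the separate parts of the 2 were not tested.

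Exons in genes for RNA-binding proteins and in known alternative exons changed as well. In HNRNPK, a poly(C)-binding hnRNP, a coding exon went from 0.999, 1.00 and 1.00 in controls to 0.726, 0.711 and 0.816 with ASO-1570 (change -0.25, SE 0.0361, limma adjusted p = 0.0425), with no change called in gene level (log2 change 0.13, edgeR adjusted p = 0.178). The short exon that distinguishes the B1 from the A2 form of HNRNPA2B1 went from 0.317, 0.329 and 0.315 to 0.187, 0.178 and 0.220 (change -0.13, SE 0.0192, limma adjusted p = 0.0485). In RBM39, a U2AF-related factor, a 90-base exon of noncoding transcripts went from 0.942, 0.946 and 0.954 to 0.341, 0.371 and 0.568 (limma adjusted p = 0.0317). An exon of RIF1, which guides replication timing and repair of broken DNA, went from 0.712, 0.723 and 0.749 to 0.306, 0.244 and 0.396 (change -0.41, SE 0.0432, limma adjusted p = 0.0214). In all 4 genes every control lay above every ASO-1570 library, as at all 259 adjacent-flank exons called lower.
HNRNPK chr9:83972844-83972972: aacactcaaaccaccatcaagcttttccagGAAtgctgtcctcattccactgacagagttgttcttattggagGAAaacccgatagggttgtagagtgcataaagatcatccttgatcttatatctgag
HNRNPA2B1 chr7:26197831-26197866: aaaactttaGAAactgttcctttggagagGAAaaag
RIF1 chr2:151468474-151468551: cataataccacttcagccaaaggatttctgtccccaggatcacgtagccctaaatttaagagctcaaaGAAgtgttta
MBNL1 chr3:152446704-152446757: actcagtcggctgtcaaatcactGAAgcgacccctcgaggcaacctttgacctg
These exons are shown because they change the protein without shifting its frame: their lengths of 129, 36, 78 and 54 bases are all multiples of 3. The MBNL1 exon went the other way. MBNL1 is the muscleblind splicing factor, and this 54-base exon had a PSI of 0.288, 0.283 and 0.329 in controls and 0.510, 0.503 and 0.439 with ASO-1570 (change 0.18, SE 0.0282, limma adjusted p = 0.0486). The gene itself fell by 0.51 on the log2 scale (edgeR adjusted p = 0.0342, and 0.0630 to 0.132 without ASO-1570 replicate 1, control 1 or control 2). In FN1, the matrix protein fibronectin, the 273-base extra domain B exon at chr2:215392931-215393203 rose from 0.107, 0.115 and 0.112 to 0.280, 0.269 and 0.247 (change 0.15, SE 0.0173, limma adjusted p = 0.0256). FN1 level fell by 0.55 on the log2 scale (edgeR adjusted p = 0.023, and 0.0521 to 0.0756 without ASO-1570 replicate 1, control 2 or control 3). These 6 exons kept their call only without ASO-1570 replicate 3. Their highest limma adjusted p on leaving out another library was 0.182 for HNRNPK, 0.2 for HNRNPA2B1, 0.124 for RBM39, 0.0942 for RIF1, 0.192 for MBNL1 and 0.127 for FN1.

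Other kinds of event were fewer. SMC4, a core condensin subunit, retained an intron at 0.5, 0.638 and 0.532 in controls and 0.933, 0.957 and 0.964 with ASO-1570 (limma adjusted p = 0.0284, called only without ASO-1570 replicate 3 when 1 library was left out, highest adjusted p 0.112). SMC4 level was 377, 376 and 350 CPM in controls and 128, 134 and 165 CPM with ASO-1570, a log2 change of -1.37 (SE 0.0979, edgeR adjusted p = 7.62e-06), and IFT80 and TRIM59 overlap it on the other strand. NECAP1, an endocytosis adaptor, went the other way at a retained intron, from 0.671, 0.695 and 0.697 to 0.128, 0.178 and 0.192 (limma adjusted p = 0.00254). SNAP23, a fusion protein of the plasma membrane, lost the longer form of an alternative 3′ splice site, from 0.913, 0.946 and 1.00 to 0.127, 0.141 and 0.182 (limma adjusted p = 0.00187). NECAP1 and SNAP23 were called in all 6 fits that each left out a library. In CALD1, the actin-binding caldesmon, an alternative 5′ splice site rose from 0.471, 0.404 and 0.422 to 0.735, 0.710 and 0.634 (limma adjusted p = 0.0428, highest 0.183 with 1 library left out).

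Gene levels changed widely. By edgeR's quasi-likelihood test with Benjamini-Hochberg adjustment, 3049 of 26159 genes rose (11.7%) and 3552 fell (13.6%), or 25.2% in all, and the median log2 change was 0. With upper-quartile scaling in place of TMM, which moved the median of all genes by 0.103, 4171 rose and 2625 fell, so that 61.4% of calls were higher in place of 46.2%. At least 2-fold changes were 1161 higher (4.44%) and 505 lower (1.93%). Most of the strong rises were at low levels: of 10140 genes whose log2 CPM averaged 3 or more, 49 rose and 132 fell by 2-fold or more. At any size of change, 1299 of these 10140 genes rose and 2596 fell, a larger share of falls than over all genes. Without ASO-1570 replicate 2 the calls were 2871 higher and 3534 lower, without ASO-1570 replicate 3 they were 3569 and 4218, and without control 2 they were 1940 and 2281. In bulk RNA, fewer cells of a state and less RNA per cell cannot be told apart.

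**Figure D4:**
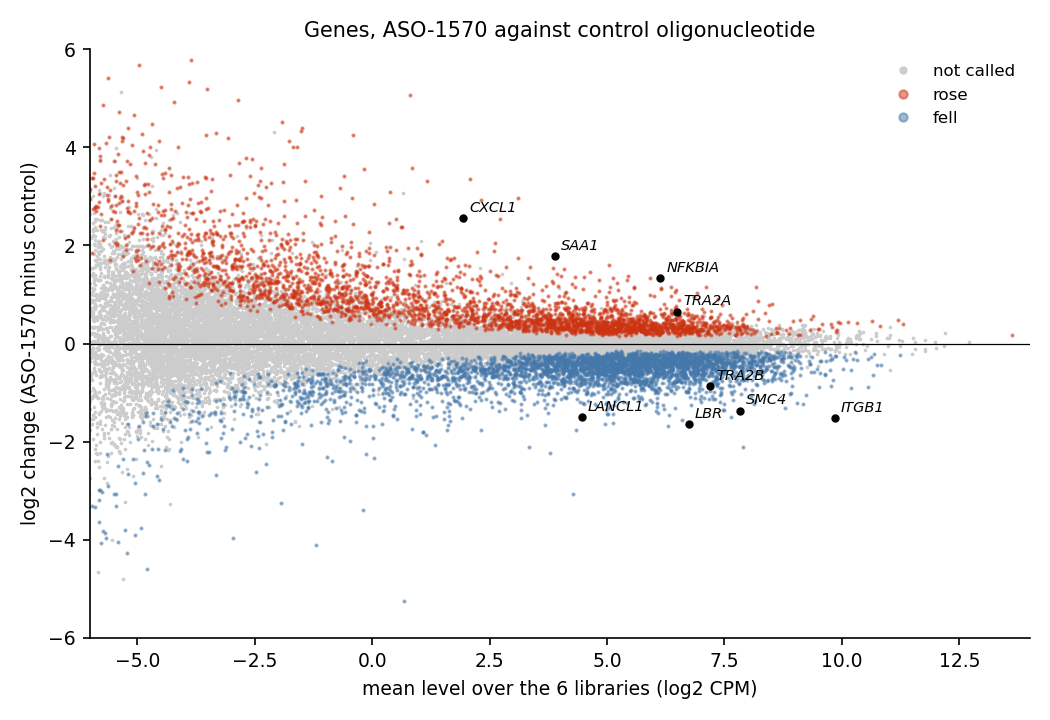
Log2 change with ASO-1570 against mean log2 CPM over the 6 libraries for 23346 genes inside the axes, with 2813 genes outside them. Coloured points passed the edgeR test. The largest changes lie at low level, and TRA2B, LBR, ITGB1 and SMC4 are marked among abundant genes that fell.

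Abundant genes that fell strongly were of varied function, and those given here are some of the 15 largest falls, not the first in rank: IL11, NORAD, SLCO4A1, AIDA and GLG1 fell by more than LBR. LBR (ENSG00000143815.15, chr1:225401502-225428925), the lamin B receptor of the inner nuclear membrane and a sterol reductase, was at 194, 209 and 171 CPM in controls and 62.3, 44.2 and 77.1 CPM with ASO-1570 (log2 change -1.64, SE 0.157, edgeR adjusted p = 5.01e-05). EPDR1, an ependymin-related secreted protein, went from 61.2, 62.3 and 61.2 CPM to 20.1, 16.9 and 23.1 CPM (log2 change -1.62, edgeR adjusted p = 3.77e-06). In both genes ASO-1570 replicate 2 was the lowest, and lack of overlap between the groups was a condition for naming them. DMBT1, a scavenger receptor family glycoprotein, was 3.39-fold lower and LANCL1, a glutathione-binding protein, 2.84-fold lower (edgeR adjusted p = 0.000156 and 0.000249).

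Splicing factors were described with lists that had been written with results of these data known. Their counts stand beside 1299 rising and 2596 falling genes of the 10140 whose log2 CPM averaged 3 or more. Of 12 SR proteins, 1 rose and 1 fell (median log2 change -0.06): SRSF5 went from 109, 107 and 110 CPM to 153, 157 and 134 CPM (log2 change 0.45, edgeR adjusted p = 0.000748), and SRSF1 fell by 0.32 (edgeR adjusted p = 0.023, and 0.0738 and 0.0947 without control 1 or control 2). SRPK1, the kinase that phosphorylates SR proteins, was at 410, 437 and 417 CPM in controls and 251, 230 and 273 CPM with ASO-1570 (log2 change -0.74, SE 0.0728, edgeR adjusted p = 5.65e-05). Of 26 other exon regulators, none rose and 8 fell (median -0.11), led among abundant ones by QKI, the STAR-family regulator, at 109, 124 and 91.7 CPM in controls and 45.4, 26.7 and 52.9 CPM with ASO-1570 (log2 change -1.38, edgeR adjusted p = 0.000457). With upper-quartile scaling 2 of these regulators rose and 6 fell, and 3 fell without control 2. Of 23 hnRNP and PTB proteins, 2 rose and 8 fell (median -0.09), but 4 rose and 2 fell with upper-quartile scaling, and 1 rose and 1 fell without control 2. HNRNPDL fell by 0.39 (edgeR adjusted p = 0.000412), and PTBP2 rose by 0.48 (adjusted p = 0.0137, and 0.0611 and 0.0581 without control 3 or ASO-1570 replicate 1). Of 41 core spliceosome genes 7 rose and 3 fell (median 0.06), and those that fell were SF3A1, SF3A3 and SF3B3 of the U2 particle, by 0.61, 0.47 and 0.47 on the log2 scale (edgeR adjusted p = 0.000169, 0.000343 and 0.00425). The balance depended on single libraries: 2 core genes rose and 3 fell without control 1 or control 2, 3 rose and 3 fell without control 3, 7 rose and 8 fell without ASO-1570 replicate 2, and 13 rose and 3 fell without ASO-1570 replicate 3.

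Genes of cell division were lower. Of 34 kinetochore and spindle checkpoint genes, 1 rose and 26 fell (median log2 change -0.55, beside 0 for all genes and 13.6% fallen), and 23 to 27 fell with upper-quartile scaling or without any 1 of control 2, ASO-1570 replicate 2 and ASO-1570 replicate 3. CENPH, an inner kinetochore subunit, was at 18.1, 18.9 and 16 CPM in controls and 7.59, 8.69 and 9.58 CPM with ASO-1570 (log2 change -1.04, edgeR adjusted p = 0.000191). Of 22 mitotic kinesins and spindle proteins, none rose and 20 fell (median -0.66), among them KIF20B, a kinesin of cytokinesis, which went from 193, 198 and 168 CPM to 77.0, 90.2 and 100 CPM (log2 change -1.06, edgeR adjusted p = 8.32e-05). Every ASO-1570 library lay below every control for both genes. Of 26 Fanconi and homologous recombination genes, 21 fell (14 without control 2), and of 41 replication genes 27 fell and 1 rose (19 fell and 2 rose with upper-quartile scaling). The replication gene that rose was GMNN, geminin, the inhibitor of relicensing, from 26.3, 25.9 and 30.5 CPM to 62.5, 73.3 and 66.5 CPM (log2 change 1.29, edgeR adjusted p = 8.27e-06). CCNG1, a cyclin known as a p53 target, went from 61.6, 63.0 and 58.2 CPM to 136, 115 and 128 CPM (log2 change 1.05, edgeR adjusted p = 4.9e-06), although of 24 genes in the list of cell cycle inhibitors and p53 targets 5 rose and 7 fell.

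Most feedback genes of the ERK pathway were lower. Of 20 tested, 3 rose and 14 fell (median log2 change -0.39), and 3 rose and 12 fell with upper-quartile scaling. Over all genes tested, 11.7% rose and 13.6% fell. DUSP6, the phosphatase that ERK induces against itself, was at 116, 121 and 121 CPM in controls and 46.5, 38.0 and 57.2 CPM with ASO-1570 (log2 change -1.33, SE 0.137, edgeR adjusted p = 7.52e-05). DUSP10, a phosphatase that acts mainly on the stress kinases p38 and JNK, went the other way, from 49.8, 48.6 and 46.3 CPM to 79.6, 71.5 and 72.6 CPM (log2 change 0.63, edgeR adjusted p = 0.000105). Both genes kept their call without any 1 library.

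Genes of the secretory pathway and of the nuclear pore were lower in part. Their counts stand beside 1299 rising and 2596 falling genes of the 10140 whose log2 CPM averaged 3 or more. Over all genes, falls numbered 3552, with 2625 under upper-quartile scaling and 2281 without control 2. Of 28 ER translocation and glycosylation genes, 3 rose and 17 fell (median log2 change -0.25), but 9 fell with upper-quartile scaling and 12 without control 2. RRBP1, the ribosome-binding protein of the ER, went from 879, 867 and 930 CPM to 308, 398 and 438 CPM (log2 change -1.23, edgeR adjusted p = 0.000277), and SSR2, a translocon-associated subunit, from 218, 213 and 231 CPM to 100, 124 and 109 CPM (log2 change -0.99, edgeR adjusted p = 5.26e-05). Of 41 nuclear pore genes and importins, 1 rose and 21 fell (median -0.30), with 14 falling under upper-quartile scaling and 12 without control 2. TPR, a filament of the nuclear basket, went from 231, 247 and 245 CPM to 126, 106 and 155 CPM (log2 change -0.90, edgeR adjusted p = 0.000204). Of 27 matrix proteases and inhibitors, none rose and 12 fell (median -0.40), among them MMP14, a membrane-bound collagenase, from 496, 511 and 549 CPM to 308, 310 and 337 CPM (log2 change -0.70, edgeR adjusted p = 5.93e-05). The laminin receptor subunit ITGA6 went from 644, 704 and 663 CPM to 383, 277 and 444 CPM (log2 change -0.87, edgeR adjusted p = 0.00422).

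NF-kB genes and chemokines rose in part, unequally across the ASO-1570 libraries, and other inflammatory lists were mixed. The lists stand beside 11.7% rising and 13.6% falling of all genes tested. Of 17 NF-kB subunits and feedback inhibitors, 10 rose and 1 fell (median log2 change 0.62), and 12 rose and none fell with upper-quartile scaling. Of 15 CXCL and CCL chemokines, 7 rose and none fell (median 1.38), and 4 rose without control 1. Of 17 IL1, IL6 and CSF family cytokines 6 rose and 3 fell (median 0.37), and of 38 interferon response genes 8 rose and 2 fell (median 0.22, with 14 and 1 under upper-quartile scaling). Of 24 early-response transcription factors 7 rose and 4 fell (median 0.03), and of 16 sensors of foreign nucleic acid 3 rose and 4 fell (median -0.08, with 5 and 3 under upper-quartile scaling). SAA1, an acute-phase protein, was at 7.90, 8.18 and 9.11 CPM in controls and 38.0, 35.2 and 13.4 CPM with ASO-1570 (log2 change 1.78, SE 0.372, edgeR adjusted p = 0.0047). CXCL1, a neutrophil chemokine, was at 1.58, 2.33 and 1.63 CPM in controls and 20.1, 9.76 and 2.69 CPM with ASO-1570 (log2 change 2.55, SE 0.509, edgeR adjusted p = 0.00362), and CXCL2 at 2.59, 3.85 and 3.70 CPM and 22.1, 16.1 and 4.07 CPM (log2 change 2.06, edgeR adjusted p = 0.00479). For all 3 genes ASO-1570 replicate 3 lay close to the controls and replicate 1 was the highest. CEBPD, a transcription factor of the acute-phase response, was more even, at 10.4, 9.52 and 10.5 CPM in controls and 28.6, 30.7 and 19.7 CPM with ASO-1570 (log2 change 1.38, edgeR adjusted p = 7.15e-05). The fibroblast marker sum given above was also higher with ASO-1570, and its part in these rises was not tested.

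**Figure D5:**
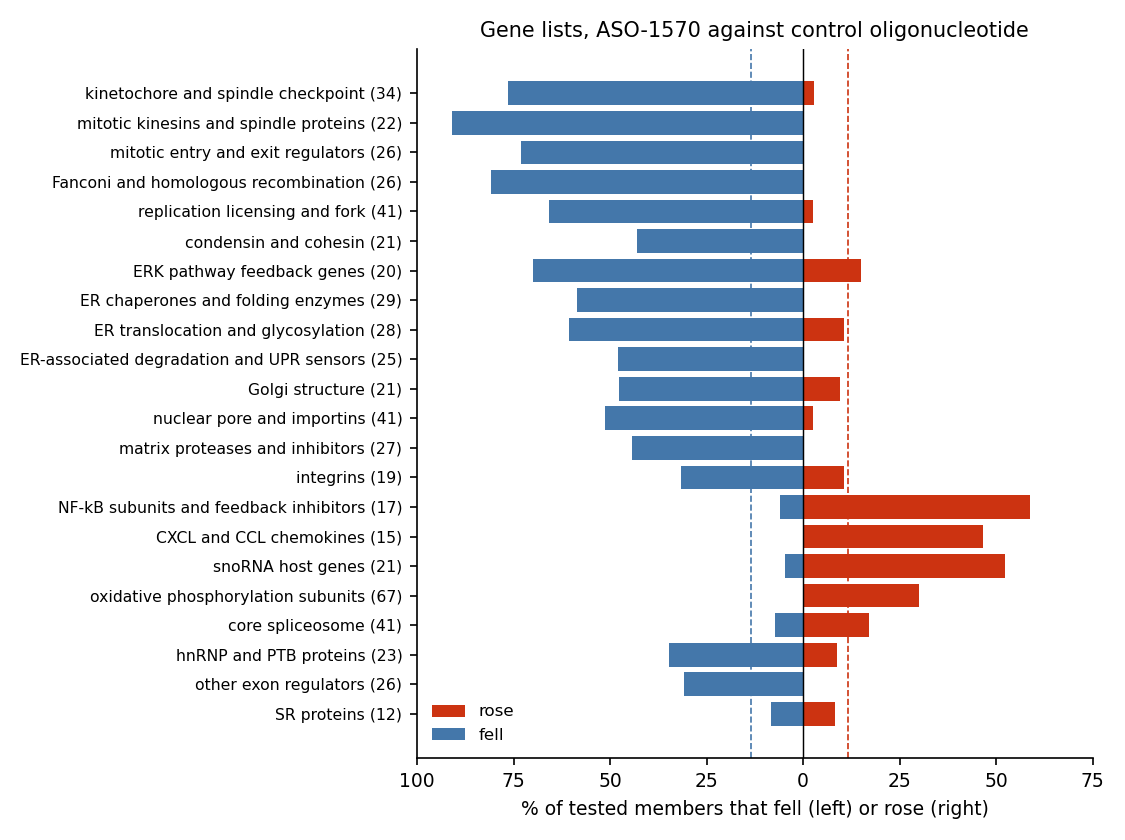
Share of tested genes that rose and fell in a selection of the gene lists, in percent, with the number tested in parentheses, beside the shares over all 26159 genes (dashed lines, 11.7% rose and 13.6% fell). Falls were more frequent in abundant and protein-coding genes. Of 10140 genes whose log2 CPM averaged 3 or more, 1299 rose and 2596 fell, and of 16234 protein-coding genes 1945 rose and 3146 fell. Mitotic, DNA repair and secretory lists lie to the side of genes that fell, and NF-kB genes, chemokines and snoRNA host genes to the side of genes that rose.

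Splicing and level changes met in part of the genes. Of 671 genes with a called event, 649 were tested for level and 262 were called (40.2%, beside 25.2% of all genes tested). Genes with a tested adjacent-flank exon are the nearer reference: of 7492 such genes, 12.6% rose and 25.3% fell. Of 226 genes with an exon that fell, 11.5% rose and 32.3% fell (median log2 change -0.16, beside -0.09). Where the exon was coding and its length not a multiple of 3, 41.4% of 58 genes fell and 15.5% rose. Where it was a multiple of 3, 33.7% of 98 fell and 5.1% rose. Of 89 genes with an exon that rose, 12.4% rose and 23.6% fell. Among abundant genes called for both, CTDSPL, a small phosphatase, went from 133, 130 and 137 CPM to 43.0, 48.6 and 53.6 CPM (log2 change -1.46, edgeR adjusted p = 4.89e-06), and TSEN15, a subunit of the tRNA splicing endonuclease, from 87.7, 92.9 and 81.7 CPM to 34.9, 34.6 and 41.8 CPM (log2 change -1.24, edgeR adjusted p = 4.9e-06). TRNT1, which matures the same class of RNA, rose by 0.74 on the log2 scale (edgeR adjusted p = 7.52e-05) while its UTR exon fell.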

How the data were processed

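Per the labels' protocols, MDA-MB-231 cells were transfected with control ASO or ASO-1570 at 200 nM and stranded mRNA was sequenced 48 h later. The deposited gene table holds whole-number counts and the deposited splicing table holds PSI as a fraction from 0 to 1. The submitters' processing notes name FastQC, MultiQC, Trimmomatic, STAR and StringTie with GRCh38 (hg38). How counts were derived, whether strand was used, and the splicing settings are not given in the sources used here. PSI came without read counts, so the depth behind each PSI is unknown.

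Counts of all 12 libraries of the 200 nM table, which also holds the U87MG line and shares 1 estimate of spread, were fitted with edgeR 4.0.16 (filterByExpr, TMM, quasi-likelihood) and the ASO-1570 minus control contrast in MDA-MB-231 was tested. CPM values use TMM-scaled library sizes. PSI was tested with limma 3.58.1 (trend) in the 6 libraries, over events with 6 values and a range of at least 0.05. P-values were adjusted over all features (threshold 0.05). Both fits were also run on simulated data. In the simulated PSI the moved events lay only at intermediate control PSI, so exons that controls nearly always included were not covered. Exon sequences were cut from GENCODE transcript sequences, and gene positions were read from the GENCODE annotation of GRCh38. Genes with an overlapping partner are uncertain, since the use of strand in counting is not stated. Named items were TRA2B and TRA2A, the 15 largest changes in each direction among called items without overlap between groups (genes at a mean log2 CPM of at least 3), up to 3 called members of each list, called splicing genes, and the leading adjacent-flank exons, a group added after seeing the data. Members and lists were chosen with earlier results of these data known. Replicate numbers were not used to pair the libraries, since the labels state no pairing. A few named genes are not reported here. Alternatives changed scaling, filters, the scale of PSI, the libraries in the fit, a replicate block and, for counts, DESeq2 1.42.0.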

Additional observations from a re-analysis of the deposited data

How the results depend on the processing

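Of 224 called genes under the naming rules, 172 kept their call in every fit without 1 library, and of 120 named splicing events 35 did and 5 kept it in none. Leaving out 1 library gave 1940 to 3569 higher and 2281 to 4218 lower genes and 29 to 418 higher and 105 to 2034 lower events. Genes changed at least 2-fold numbered 1666, and 831 with a minimum of 1 CPM in 3 libraries. With only the MDA-MB-231 libraries in the fit, 2325 genes were higher and 2359 lower. In that fit 46 of the 224 called genes lost their call. Events higher and lower numbered 134 and 271 with no filter on range, 568 and 1794 on the logit scale, and 1037 and 2448 with all 12 libraries, where the limma adjusted p of the TRA2B poison exon difference of 0.26 was 0.0221 in place of 0.131. RPS12, with a log2 change of 0.0034, ranged from -0.22 to 0.11 without 1 library, the lowest without ASO-1570 replicate 2 (edgeR adjusted p = 0.0123).

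Replicate numbers were not taken as pairs, because the labels state no pairing. Correlations of same-numbered deviations were -0.03, -0.63 and -0.36 over genes, and with so few libraries they cannot exclude a shared batch. With a replicate block, 1123 genes were higher, 1125 lower and 965 changed at least 2-fold, and 0 events were called in either direction by limma (6715 at an unadjusted p below 0.05 and a difference of at least 0.10, and 6703 without the block). The block kept the calls of 137 of the 224 genes. For adjacent-flank exons, a limit added after seeing the data, counts of higher and lower exons were 15 to 142 and 15 to 715 without 1 library, 319 and 859 with all 12 libraries, 185 and 692 on the logit scale, 48 and 96 with no filter on range, and 0 with the block. The cause of these shifts was not tested. The unknown read depth behind each PSI limits how firmly any single exon can be read.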

Other observations

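Gene classes that the comparison did not order by pathway also differed. Of 16234 protein-coding genes 1945 rose and 3146 fell (median log2 change -0.03), whereas of 4795 lincRNA and antisense genes 638 rose and 199 fell (median 0.16), and of 108 snoRNA genes 21 rose and 2 fell (median 0.51). In these mRNA libraries, reads of snoRNA genes and of the transcripts that contain them were not told apart. Of 21 snoRNA host genes 11 rose and 1 fell, among them EPB41L4A-AS1, which rose by 1.01 on the log2 scale (edgeR adjusted p = 0.00046), and SNHG32, which was at 117, 115 and 124 CPM in controls and 174, 220 and 170 CPM with ASO-1570 (log2 change 0.66, edgeR adjusted p = 0.000311). SNHG16 was the host gene that fell, by 0.51 (edgeR adjusted p = 0.000298). EPB41L4A overlaps EPB41L4A-AS1 on the other strand.

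More mitochondrial genes encoded in the nucleus rose than fell in both lists given here. Of 67 oxidative phosphorylation subunits 20 rose and none fell (median log2 change 0.27), among them COX7B, a cytochrome c oxidase subunit, at 62.0, 56.6 and 60.5 CPM in controls and 85.2, 107 and 73.7 CPM with ASO-1570 (log2 change 0.57, edgeR adjusted p = 0.00317). The count was 35 with upper-quartile scaling, 42 without ASO-1570 replicate 3 and 6 without control 2, and without ASO-1570 replicate 2 there were 18 that rose and 2 that fell. Of 63 mitochondrial ribosomal protein genes 14 rose and 6 fell (median 0.15). MRPS31, which had the lowest log2 change of that group, fell from 18.6, 18.6 and 19.6 CPM to 7.63, 8.79 and 9.17 CPM (log2 change -1.15, edgeR adjusted p = 4.9e-06). LARS1, the cytosolic leucyl-tRNA synthetase, went from 239, 251 and 247 CPM to 121, 102 and 141 CPM (log2 change -1.02, edgeR adjusted p = 7.58e-05).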
